A study of Mus musculus with 9 samples.

Results

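Diestrus oviduct was compared with immature oviduct on 6 of the 9 arrays of this series, chosen by their labels. On Affymetrix arrays, the study measured RNA of the whole oviduct of female CD1 mice, and no animal was hormonally stimulated. The 3 immature arrays, titled as controls, carried RNA of sexually immature females of day 21. The 3 diestrus arrays carried RNA of sexually mature females in diestrus, whose age was not given in the sources used. The 3 remaining arrays, of mature females in estrus, served only the shared estimate of the spread. Each array held pooled tissue of 5 animals extracted with RNAzol, so p-values measure the spread between pools. The immature group is a day of age and not a phase of the cycle, so sexual maturity and diestrus cannot be told apart in this comparison.

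The oviduct is the tube in which eggs are fertilised and embryos begin to divide. It is lined by secretory cells, which release proteins into the tubal fluid, and by multiciliated cells, which make many centrioles at once, dock them as basal bodies and grow motile cilia from them. The epithelium of the juvenile tube is still growing and still forming ciliated cells. In the mature tube it is exposed to ovarian hormones, and diestrus is the luteal phase, in which progesterone dominates.

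The values are log2 intensities after robust multi-array averaging, and a difference is the diestrus mean minus the immature mean on that scale. Array medians lay between 8.85 and 8.88, and across probe sets the correlation of 2 arrays was 0.992 to 0.996 within a group and 0.991 to 0.993 between the groups. Markers of the oviduct were bright: Foxj1, the master factor of motile cilia, averaged 11.49 on the immature and 11.26 on the diestrus arrays, and Pax8, a factor of secretory cells, averaged 12.16 and 12.02. Neighbouring tissue was uneven between pools. The summed intensity of 6 granulosa cell genes was between 2483 and 8650 on the immature arrays, highest on immature 2, and between 2577 and 4086 on the diestrus arrays. That of 6 theca and luteal genes was between 1491 and 2707 on the immature arrays, and between 1546 and 7012 on the diestrus arrays, highest on diestrus 2. Smooth muscle genes summed to between 23697 and 28401 on the immature and between 22522 and 38664 on the diestrus arrays, and 4 posterior Hox genes to between 1130 and 1492 and between 1304 and 2652. Diestrus 3 was the highest array for both, as it was for 5 stromal genes. Fat cell genes summed to between 1912 and 3373 on the immature arrays, highest on immature 1, and to between 1654 and 1949 in diestrus. Fewer cells of a type and less RNA per cell cannot be told apart in such pools.

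Of 28214 probe sets, 83 (0.294%) rose and 199 (0.705%) fell in diestrus at an adjusted p under 0.05 in limma, 282 (1.00%) in all. After cyclic loess normalization 82 rose and 123 fell. They named 53 genes that rose and 174 that fell, and a further 27 probe sets had several symbols and 24 had none. The rises were larger, with a median of 0.68 against 0.46 for the falls, and 16 rises and 12 falls were at least 2-fold. Most of these 16 rises were of immunoglobulin probe sets, whose chains share sequence. Rises were often of dim probe sets: on 46 of the 83 the immature arrays were all below the array median, and on 29 both groups were. Falls were mostly of bright ones, as the plot of difference against intensity shows. With the probe sets cut into 4 equal bins of intensity, 1.62% fell and 0.312% rose in the brightest bin, and 0.0567% fell and 0.213% rose in the dimmest. The immature and diestrus arrays did not overlap on any of the 282, against 7.52% of all probe sets without overlap and higher in diestrus and 10.9% without overlap and lower. A call favours groups without overlap, so this adds no support to the calls.

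**Figure D1:**
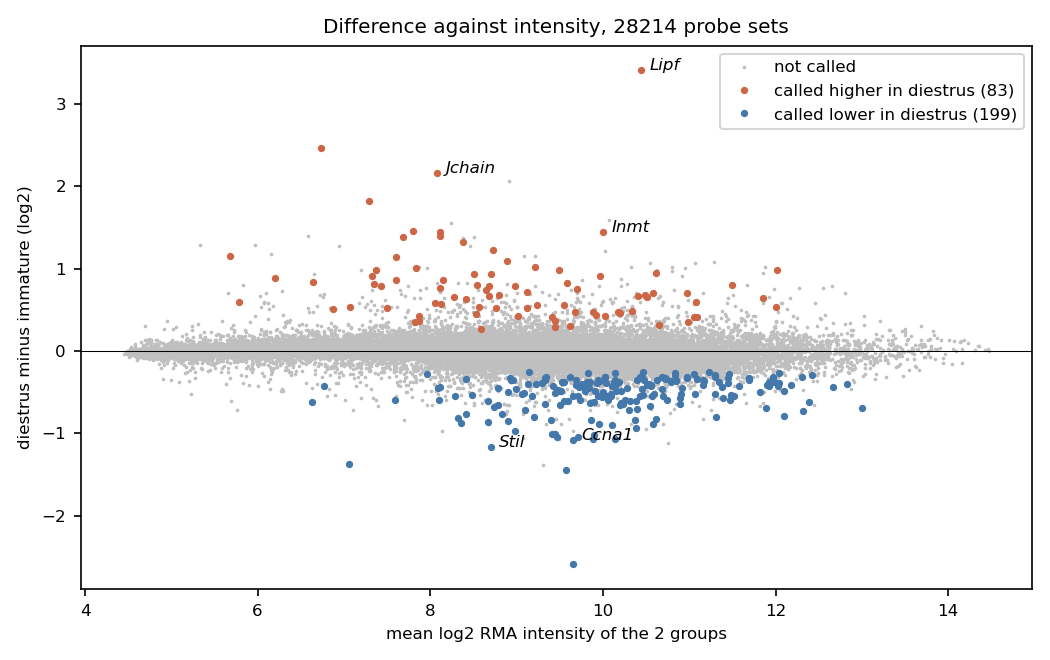
Each point is 1 of 28214 probe sets, placed by the mean log2 intensity of both groups (horizontal axis) and by diestrus minus immature (vertical axis, log2), with the 83 called higher and the 199 called lower in colour. Lipf, at 3.41, is the highest called point, Jchain, at 2.16, is dim, and the called falls lie mostly among brighter probe sets.

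The counts changed with the arrays in the fit. Left-out fits called 23 higher and 35 lower without immature 1, 16 and 25 without immature 2, and 21 and 31 without immature 3. They called 36 and 44 without diestrus 1, 26 and 19 without diestrus 2, and 116 and 417 without diestrus 3. Without estrus 1, 2 or 3, which changes only the estimate of the spread, 49 and 105, 85 and 172, and 51 and 102 were called. Of the probe sets called with all arrays, 14 rises and 16 falls kept their call in each of the 9 fits that left out 1 array. Without immature 2 and diestrus 2 together, the arrays with the highest ovarian genes, 5 rose and 5 fell.

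**Figure D2:**
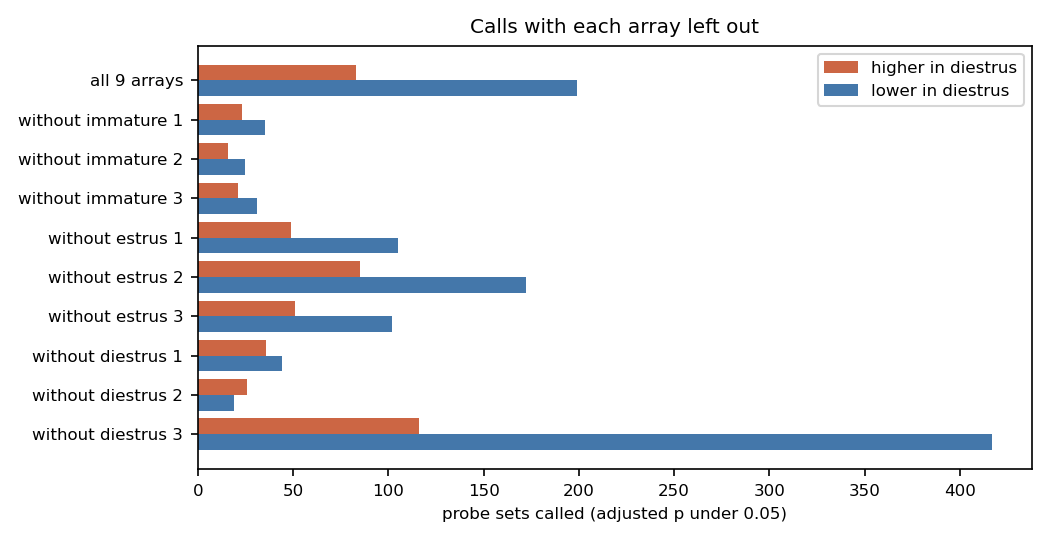
Bars give the number of probe sets called at an adjusted p under 0.05 (horizontal axis) with all 9 arrays and with each array left out, for higher and lower in diestrus. Leaving out diestrus 3 raised the count of falls from 199 to 417, and leaving out diestrus 2 lowered it to 19.

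Genes of secreted proteins made the largest rise. Lipf, gastric lipase, which cuts dietary fat in the stomach, measured 8.84, 8.72 and 8.64 on immature 1, 2 and 3 and 12.43, 11.88 and 12.13 on diestrus 1, 2 and 3. Its immature arrays were all below the array median and its diestrus arrays far above it, with no overlap. The difference was 3.41 ± 0.26 (SE, n = 3 pools a group, adjusted p = 0.00183 in limma), a 10.6-fold rise, and the call held in each left-out fit. Wfdc18, a small secreted protein with a whey acidic protein domain, measured 11.77, 11.45 and 11.37 against 12.53, 12.80 and 12.21 and rose by 0.98 ± 0.17 (adjusted p = 0.0387). Chia1, an acidic chitinase, measured 9.13, 8.86 and 9.50 against 9.90, 10.09 and 10.01 and rose by 0.83 ± 0.14 (adjusted p = 0.0329). Gpx3, the secreted glutathione peroxidase, measured 11.15, 11.11 and 11.04 against 11.96, 12.09 and 11.65 and rose by 0.80 ± 0.12 (adjusted p = 0.0221). Clu, the extracellular chaperone clusterin, averaged 11.54 ± 0.09 (SD, n = 3) and 12.18 ± 0.20 and rose by 0.64. The groups did not overlap for any of these genes, which was a condition for naming the largest rises among them.

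Of the 19 measured genes of the secretory cell list, 3 rose (Wfdc18, Gpx3 and Clu) and none fell, against 0.294% and 0.705% of all probe sets. The median difference was 0.20, against 0.01 over all probe sets. A higher diestrus mean was found for 13 of the 19, against 53.5% of all probe sets, and a lower one for 46.5% of all. The rises lay among the 12 secreted products, whose median was 0.58. The 7 genes of epithelial identity had a median of -0.03 and no call. Pax8 measured 12.15, 12.18 and 12.15 against 12.18, 12.13 and 11.76, so the groups overlapped, and Krt8, a keratin of simple epithelia, differed by -0.08 ± 0.08. Ltf, the iron-binding lactoferrin and a known estrogen target, measured 12.56, 11.96 and 12.26 against 13.08, 13.24 and 12.82. Lcn2, which binds iron carriers of bacteria, measured 12.66, 12.30 and 12.38 against 12.90, 13.23 and 13.33. Neither passed the test (adjusted p = 0.0837 and 0.0832 in limma), although the groups did not overlap for either. The summed intensity of 5 secretory cell markers was between 13912 and 14435 on the immature and between 12412 and 14573 on the diestrus arrays.

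The Klk1 kallikreins, secreted serine proteases, were counted over 16 probe sets. Of these, 2 rose and 13 had a higher diestrus mean, against 0.294% and 53.5% of all probe sets. Klk1b11 measured 8.53, 8.38 and 8.13 against 9.08, 9.77 and 9.48 and rose by 1.09 ± 0.19 (adjusted p = 0.0339 in limma). Klk1b27 measured 9.08, 8.62 and 8.60 against 9.39, 9.67 and 9.39 and rose by 0.72 ± 0.14 (adjusted p = 0.047). These genes are near copies of each other, so which of them the probes read is uncertain. Of Lipf, Wfdc18, Chia1, Gpx3, Clu and these kallikreins, 7 in all, only Lipf was called without immature 2 or without diestrus 2. Of the 7, 2 were called without immature 1 (Lipf and Klk1b27), 2 without immature 3, 3 without diestrus 1, and 2, 6 and 3 without estrus 1, 2 and 3, while all 7 were called without diestrus 3. The adjusted p of the lost calls was between 0.054 and 0.161.

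**Figure D3:**
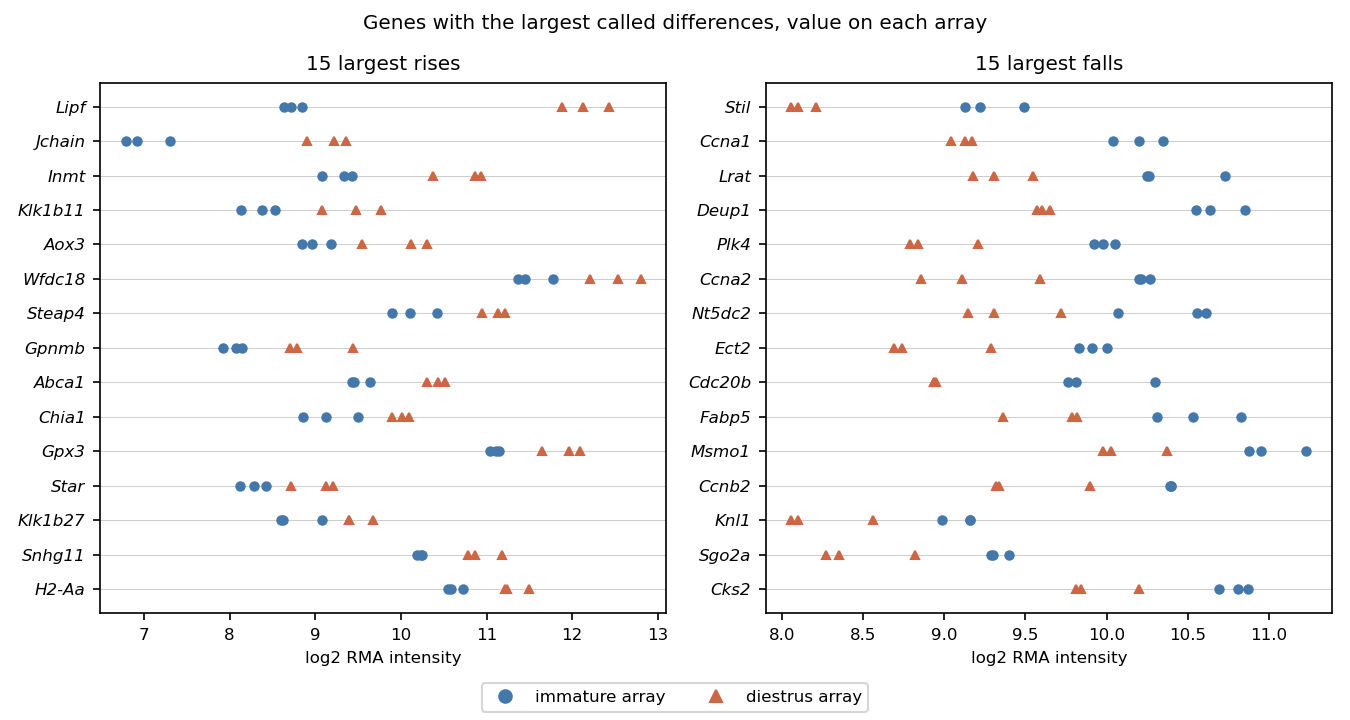
Log2 intensity on each of the 3 immature (circles) and 3 diestrus arrays (triangles) for the 15 called genes with the largest rise and the 15 with the largest fall, among probe sets with 1 symbol whose higher group lay above the median. Only genes whose groups do not overlap were taken, and the rows run from Lipf (8.73 against 12.15 on average) to Cks2 (10.79 against 9.95).

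Of 27 measured redox and xenobiotic genes, 3 rose (Inmt, Aox3 and Gpx3, the last already given among the secreted proteins) and 1 fell, against 0.294% and 0.705% of all probe sets. A higher diestrus mean was found for 16 and a lower one for 11, against 53.5% and 46.5% of all probe sets, with a median of 0.15. Inmt, which methylates indoles such as tryptamine, measured 9.43, 9.08 and 9.34 on the immature and 10.37, 10.87 and 10.93 on the diestrus arrays. The difference was 1.44 ± 0.23 (adjusted p = 0.0261 in limma), a 2.71-fold rise with no overlap between the groups. Aox3, an aldehyde oxidase, averaged 9.00 ± 0.17 (SD, n = 3) and 9.99 ± 0.39 and rose by 0.99. Gclc, the catalytic subunit that starts glutathione synthesis, fell by 0.39 (adjusted p = 0.0251). Steap4, a metalloreductase of iron and copper, measured 10.11, 9.90 and 10.42 against 10.95, 11.13 and 11.21 and was the only 1 of 17 iron handling genes to be called, with a rise of 0.95 ± 0.13 (adjusted p = 0.0144).

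Cndp1, a dipeptidase that cuts carnosine, measured 10.22, 10.04 and 10.18 against 10.91, 10.72 and 10.85 and rose by 0.68 ± 0.08 (adjusted p = 0.00719 in limma). Sidt1, a membrane protein related to the SID-1 channel for double-stranded RNA, measured 8.36, 8.57 and 8.45 against 9.10, 9.22 and 9.09 and rose by 0.68 ± 0.07 (adjusted p = 0.00604). Glb1l3, named for its likeness to beta-galactosidase, rose by 0.86 ± 0.09, with all 6 arrays below the array median. These 3 rises were smaller than that of Inmt but had tighter replicates, and each kept its call in each of the 9 left-out fits. Snhg11, a host RNA of small nucleolar RNAs, averaged 10.23 and 10.94 and rose by 0.71 ± 0.10. A dimmer probe set of Snhg11 differed by 0.30 without a call (adjusted p = 0.0964). Of these 8 genes (Inmt, Aox3, Gclc, Steap4, Cndp1, Sidt1, Glb1l3 and Snhg11), 3 stayed called without immature 1, 3 without immature 2, 4 without immature 3, 6 without diestrus 1 and 5 without diestrus 2. All 8 were called without diestrus 3, and 7 without each of the estrus arrays. Their lost calls had an adjusted p between 0.0528 and 0.129.

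Antibody transcripts were among the largest rises. Jchain, the chain that joins antibodies into dimers and pentamers for export across mucosa, measured 7.30, 6.92 and 6.79 on the immature arrays, all below the array median. It measured 9.22, 8.90 and 9.36 on the diestrus arrays, all above the median. The difference was 2.16 ± 0.20 (adjusted p = 0.00301 in limma), a 4.46-fold rise that held in each left-out fit. Of 34 immunoglobulin probe sets, grouped after their values were seen, 12 rose, against 0.294% of all probe sets. A higher diestrus mean was found for 33, against 53.5% of all, with a median difference of 0.52. As 16 of the 34 carry several symbols and chains share sequence, no single chain is named. Pigr, the epithelial receptor that exports joined antibodies, differed by 0.53 without a call. The summed intensity of 5 B lineage genes, Jchain among them, was between 1593 and 1693 on the immature and between 2045 and 2282 on the diestrus arrays. The other 4 were not called: Cd79a differed by 0.21, Cd79b by 0.13, and Mzb1 and Pou2af1 by -0.01 each.

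Other immune lists held few calls. H2-Aa, a class II chain that presents antigen, measured 10.58, 10.55 and 10.73 against 11.22, 11.24 and 11.49 and rose by 0.70 ± 0.09 (adjusted p = 0.013 in limma). It was the 1 call among 8 class II genes, of which 7 had a higher diestrus mean, against 53.5% of all probe sets. At an unadjusted p under 0.05 in limma, 4 of the 8 were higher, against 4.44% of all. Its partner in the loading of peptides, Cd74, differed by 0.25 ± 0.15. Chemokine genes gave 3 rises among 29 measured, against 0.294% of all probe sets. These were Ccl3 (0.36 ± 0.06), Ccl8 (0.66 ± 0.10) and Cxcl15 (0.81 ± 0.14), all of them below the array median on all 6 arrays. Gpnmb, a glycoprotein of macrophage lysosomes, measured 7.92, 8.15 and 8.07 against 8.79, 8.70 and 9.44 and rose by 0.93 ± 0.17. Mfge8, which bridges dying cells to phagocytes, measured 10.80, 10.69 and 10.85 against 11.34, 11.53 and 11.28 and rose by 0.60 ± 0.08 (adjusted p = 0.0144). Ctsd, a lysosomal protease, averaged 11.61 and 12.36 and was not called (adjusted p = 0.0731). Ctsb and Ctsl, brighter genes of the same list, differed by -0.05 ± 0.06 and 0.09 ± 0.08, also without a call (adjusted p = 0.787 and 0.689 in limma). Iigp1, a GTPase induced by interferon gamma, was the only 1 of 22 interferon genes to rise, by 0.45 ± 0.09. A lower diestrus mean was found for 14 of the 22, against 46.5% of all probe sets, and the list's median was -0.03. At an unadjusted p under 0.05 in limma, 2 were higher and 4 lower, against 4.44% and 8.95% of all.

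General leukocyte markers held 1 call, Gpnmb, among 23 measured genes, where 0.294% of all probe sets rose, and had a median of 0.09. A higher diestrus mean was found for 19, against 53.5% of all probe sets. At an unadjusted p under 0.05 in limma, 8 were higher, against 4.44% of all. Lyz2, lysozyme of macrophages, averaged 10.72 and 11.20 (adjusted p = 0.23 in limma). The summed intensity of 6 leukocyte markers was between 3832 and 4800 on the immature and between 4701 and 6576 on the diestrus arrays, highest on diestrus 3, and its part in the rises of H2-Aa, Gpnmb and the chemokines was not tested. Complement held no call among 16 genes, 15 of them with a higher diestrus mean, against 53.5% of all probe sets, and a median of 0.11. Of Jchain, H2-Aa, Gpnmb, Ccl3, Ccl8, Cxcl15, Iigp1 and Mfge8, 8 in all, 2 stayed called without immature 1, 1 without immature 2 (Jchain), 3 without immature 3, 3 without diestrus 1, 2 without diestrus 2 and 7 without diestrus 3. Without estrus 1, 2 and 3 the counts were 5, 6 and 4. The lost calls had an adjusted p between 0.0508 and 0.143, and Iigp1 was called in none of the left-out fits.

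In sterol metabolism, 7 genes of the synthesis list fell and 2 of the efflux list rose, where 0.705% of all probe sets fell and 0.294% rose. The falls were of 1 early enzyme, 2 from squalene to lanosterol, 2 from lanosterol to cholesterol and 2 genes of control and uptake. Cells that hold enough sterol keep SREBP-2, the factor that drives the synthesis genes, in the endoplasmic reticulum, and surplus oxysterols activate LXR receptors, which switch on efflux genes. Of the 20 measured genes of the synthesis list, none rose, all 20 had a lower diestrus mean (against 46.5% of all probe sets), and the median was -0.42. Nsdhl, a dehydrogenase of the steps from lanosterol to cholesterol, measured 10.99, 11.12 and 10.98 on the immature and 10.11, 10.15 and 10.37 on the diestrus arrays. Its difference was -0.82 ± 0.09 (adjusted p = 0.00657 in limma). Fdft1, squalene synthase, the first enzyme committed to sterols, measured 11.58, 11.76 and 11.78 against 10.89, 10.93 and 10.91 and fell by 0.80, with an SE of 0.08 (adjusted p = 0.00534). Both kept their call in each left-out fit.

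The other falls of the list were Msmo1 (-0.89 ± 0.15) and Fdps (-0.72 ± 0.13), enzymes after and before squalene, Sqle (-0.60 ± 0.08), squalene epoxidase, Insig1 (-0.70 ± 0.13), which retains the SREBP factors, and Srebf2 (-0.33 ± 0.06), the gene of SREBP-2 itself. Hmgcs1, which makes HMG-CoA, averaged 10.44 and 9.77 without a call (adjusted p = 0.0654 in limma). Idi1, an isomerase of isoprene units, showed the largest difference of the list, -1.38 ± 0.30, and was not called. It measured 9.68, 10.45 and 9.86 against 8.28, 8.21 and 9.35, so diestrus 3 lay near the immature arrays. For the whole list, the mean level relative to the immature mean was -0.59 on diestrus 1, -0.54 on diestrus 2 and -0.33 on diestrus 3. Without diestrus 3, 9 of the 20 fell, against 1.48% of all probe sets in that fit. Of the 7 called, 3 stayed called without immature 1, 2 without each of immature 2, immature 3, diestrus 1 and diestrus 2, 6 without diestrus 3, and 3, 5 and 5 without estrus 1, 2 and 3. Where a call was lost, the adjusted p was between 0.053 and 0.169, and that of Srebf2 was lost in each fit.

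The start regions of these genes share a short motif. RefSeq windows of 300 bases (250 before to 50 after the start, GRCm38.p6) were searched on both strands for CCAAT, a box read by the factor NF-Y. It was present in 15 of the 16 genes of the synthesis list with a window (93.8%), and in 37.9% of all 27025 genes with a window. Of the 7 that fell, 4 had a window, and all 4 held the box. So did 11 of the 12 not called (91.7%), so the box did not mark the genes that fell. The letters TCACNCCAC, a form of the sterol element, were present in 1 of the 16 and in 1.22% of all genes. A match describes the letters and is no evidence of binding. The windows of Nsdhl (chrX:72918271-72918570, plus strand) and Insig1 (chr5:28071162-28071461, plus strand) are shown because both genes fell and hold 4 and 1 of these boxes. Capitals mark CCAAT, or ATTGG where the box lies on the other strand.
Nsdhl: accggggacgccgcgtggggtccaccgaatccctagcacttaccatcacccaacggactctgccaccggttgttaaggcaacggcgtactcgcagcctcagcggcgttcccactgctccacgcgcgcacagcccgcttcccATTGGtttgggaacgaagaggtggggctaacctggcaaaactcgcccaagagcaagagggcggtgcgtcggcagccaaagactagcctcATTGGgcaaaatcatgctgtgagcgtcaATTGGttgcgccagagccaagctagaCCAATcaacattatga
Insig1: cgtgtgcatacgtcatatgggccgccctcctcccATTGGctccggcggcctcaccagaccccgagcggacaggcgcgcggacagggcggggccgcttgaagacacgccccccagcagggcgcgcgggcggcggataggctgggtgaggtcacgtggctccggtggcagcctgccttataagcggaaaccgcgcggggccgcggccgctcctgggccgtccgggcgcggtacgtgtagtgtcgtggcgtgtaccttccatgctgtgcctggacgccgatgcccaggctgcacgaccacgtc

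Of 6 measured genes of the efflux list, 2 rose, Abca1 among the transporters and Mylip among the receptors and regulators, and none fell. Over all probe sets 0.294% rose and 0.705% fell. A higher diestrus mean was found for 5 and a lower one for 1, with a median of 0.26. Abca1, the transporter that loads cholesterol onto lipoprotein, measured 9.43, 9.64 and 9.45 on the immature and 10.31, 10.52 and 10.43 on the diestrus arrays. It rose by 0.91 ± 0.12 (adjusted p = 0.013 in limma), with no overlap. Mylip, the ligase that sends the LDL receptor to breakdown, measured 9.69, 9.73 and 9.71 against 10.15, 10.26 and 10.02 and rose by 0.44 ± 0.08 (adjusted p = 0.0463). Abcg1, a second efflux transporter, averaged 9.53 and 9.95 and was not called (adjusted p = 0.0837). Apoe, in the same list, differed by 0.07 ± 0.11 and Srebf1 by -0.21 ± 0.06. Neither was called (adjusted p = 0.851 and 0.157 in limma), although the groups did not overlap for Srebf1. Star, which carries cholesterol into mitochondria for steroid synthesis, measured 8.12, 8.43 and 8.29 against 8.72, 9.21 and 9.12 and rose by 0.74 ± 0.14 (adjusted p = 0.0463). Star is an ovarian gene, and its highest diestrus array, diestrus 2, was also that of the luteal markers. Akr1c18, which breaks down progesterone in corpora lutea, measured 11.53 on diestrus 2 against 7.49 and 8.05 on diestrus 1 and 3, and Cyp11a1, which starts steroid synthesis, measured 10.27 against 7.82 and 9.21. Their part in the rise of Star was not tested. Of Abca1, Mylip and Star, none was called without immature 1, immature 3 or diestrus 2, 1 without immature 2, 2 without diestrus 1, 2 without diestrus 3, and 1, 2 and 1 without estrus 1, 2 and 3. Calls that were lost had an adjusted p between 0.0542 and 0.16.

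Of 18 measured genes for making many centrioles at once, 7 fell, against 0.705% of all probe sets, and none rose. All 18 had a lower diestrus mean, against 46.5% of all probe sets, and the median was -0.38. The falls lay in the machinery, with 6 of 8 genes and a median of -0.93, more than in the regulators, with 1 of 10 and a median of -0.21, a contrast that was not tested. Stil, a scaffold of the new centriole, measured 9.22, 9.13 and 9.49 on the immature and 8.06, 8.10 and 8.21 on the diestrus arrays, all 3 below the array median. It fell by 1.16, with an SE of 0.10 (adjusted p = 0.00246 in limma). Plk4, the kinase that starts a centriole, measured 9.98, 10.05 and 9.92 against 8.84, 8.79 and 9.21 and fell by 1.04, with an SE of 0.12 (adjusted p = 0.00657). Sass6, which builds the cartwheel at the base of the centriole, averaged 10.36 and 9.83 and fell by 0.52 (adjusted p = 0.0264).

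Genes that multiciliated cells use in that machinery fell too. Deup1, which builds the deuterosome on which centrioles form in numbers, measured 10.64, 10.55 and 10.85 against 9.65, 9.57 and 9.60. Its difference was -1.07 ± 0.13 (adjusted p = 0.0103 in limma). Ccno, a cyclin needed for centriole amplification, measured 9.90, 9.67 and 9.89 against 9.01, 9.04 and 8.89 and fell by 0.84, with an SE of 0.09 (adjusted p = 0.00604). Cdc20b, which helps to free centrioles from the deuterosome, measured 9.76, 9.81 and 10.30 against 8.94, 8.95 and 8.94 and fell by 1.01. Mcidas, the regulator multicilin, measured 10.31, 10.25 and 10.27 against 9.75, 9.80 and 9.58 and fell by 0.56 (adjusted p = 0.0149). Cdc20b, Ccno and Mcidas are neighbours on chromosome 13. Gmnc, which acts before Mcidas, averaged 10.24 and 9.58 without a call (adjusted p = 0.0996). The diestrus arrays were nearly level for Deup1 and Cdc20b, and none stood apart toward the immature arrays.

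Hyls1, a protein of centrioles outside the list, measured 9.13, 9.05 and 9.05 against 8.47, 8.35 and 8.38 and fell by 0.68, with an SE of 0.06 (adjusted p = 0.00301 in limma). Of the 8 falls Stil, Plk4, Sass6, Deup1, Ccno, Cdc20b, Mcidas and Hyls1, 6 were still called without each of immature 1, 2 and 3, 7 without diestrus 1, 5 without diestrus 2 and all 8 without diestrus 3 or any estrus array. The adjusted p behind each lost call lay between 0.0518 and 0.111. Stil, Plk4, Ccno and Hyls1 kept theirs in each of the 9 fits. Without immature 2 and diestrus 2 together, Stil stayed called (adjusted p = 0.042) and the other 7 did not.

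Genes of the finished cilium were not called. Of 32 genes of motile cilium structure 29 had a lower diestrus mean, against 46.5% of all probe sets. None passed the test in limma, and the median was -0.13. At an unadjusted p under 0.05, 4 were lower, where 8.95% of all probe sets were lower and 4.44% higher. Tppp3, a tubulin-binding protein of ciliated cells, measured 12.85, 13.00 and 13.16 against 12.76, 12.85 and 12.72, so the groups met. Foxj1 measured 11.40, 11.40 and 11.67 against 11.40, 11.40 and 10.98 and differed by -0.23 ± 0.13 (adjusted p = 0.49 in limma). Myb, an early factor of ciliated cell fate, differed by -0.16 ± 0.09. The list's mean level relative to the immature mean was between -0.17 and 0.20 on the immature arrays and between -0.23 and -0.02 on the diestrus arrays, which is an overlap. Markers of ciliated epithelium summed to between 18741 and 23427 on the immature and between 17964 and 20396 on the diestrus arrays.

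Cell division gave fewer calls beside lower means in nearly all genes. Of 30 measured genes 5 fell, against 0.705% of all probe sets, and none rose. A lower diestrus mean was found for 29, against 46.5% of all, and the median was -0.57. Ccna2, the cyclin of S phase and mitotic entry, measured 10.21, 10.27 and 10.20 on the immature and 8.86, 9.11 and 9.59 on the diestrus arrays. Its difference was -1.04 ± 0.17 (adjusted p = 0.0318 in limma). Ect2, which positions the cleavage furrow, averaged 9.92 on the immature arrays, measured 8.69, 8.74 and 9.29 on the diestrus arrays and fell by 1.01, with an SE of 0.14 (adjusted p = 0.0164). Ccnb2, a mitotic cyclin, measured 10.39, 10.40 and 10.40 against 9.34, 9.32 and 9.90 and fell by 0.88, with an SE of 0.17 (adjusted p = 0.0496). The remaining calls were Racgap1, the partner of Ect2 in the spindle midzone (-0.66 ± 0.13), and Cks2, a subunit of cyclin-dependent kinases (-0.84 ± 0.11). Of 3 Cks2 probe sets 2 were called, and they may read copies of the gene. Diestrus 3 was the diestrus array nearest to the immature ones for all 5 genes.

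The best known members of the list were not called, and their diestrus arrays were spread. Mki67, the antigen by which cycling cells are stained, measured 10.06, 9.98 and 9.81 against 8.69, 8.89 and 9.63 (adjusted p = 0.143 in limma). Cdk1, the kinase of mitotic entry, measured 10.78, 10.79 and 10.75 against 9.57, 9.71 and 10.40 (adjusted p = 0.0971). On the list's mean level, diestrus 1 and 2 lay -0.78 and -0.67 from the immature mean and diestrus 3 lay -0.25. Without diestrus 3, 21 of the 30 fell, Mki67 (adjusted p = 0.0241) and Cdk1 (0.0124) among them, with a list median of -0.73 and 1.48% of all probe sets called lower. That array was also the highest for smooth muscle, stromal and posterior Hox genes, and the part of these cells in its higher division genes was not tested.

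Further division genes outside the list fell. Knl1, a scaffold of the kinetochore, averaged 9.10 and 8.24 and Sgo2a, which protects sister chromatid cohesion, 9.33 and 8.48, and both fell (adjusted p = 0.031 and 0.0369 in limma). Ccna1, a cyclin known from the male germ line, had a different pattern. It measured 10.20, 10.04 and 10.35 against 9.13, 9.04 and 9.17 and fell by 1.08, with an SE of 0.08 (adjusted p = 0.00183). Its 3 diestrus arrays lay close together, and the call held in each left-out fit and without immature 2 and diestrus 2 together (adjusted p = 0.0214). Of Ccna1, Ccna2, Ect2, Ccnb2, Racgap1, Cks2, Knl1 and Sgo2a, Ccna1 alone was called without any 1 of immature 1, 2, 3, diestrus 1 or diestrus 2. All 8 were called without diestrus 3, and 7, 7 and 4 without estrus 1, 2 and 3. For lost calls the adjusted p lay between 0.0521 and 0.174.

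DNA replication genes held no call among 21 measured. All 21 had a lower diestrus mean, against 46.5% of all probe sets, and the median was -0.25. At an unadjusted p under 0.05 in limma 12 were lower, against 8.95% of all probe sets, and without diestrus 3 there were 6 falls, against 1.48%. Of 48 probe sets of replication-dependent histones, grouped after their values were seen, 5 fell and 45 had a lower diestrus mean. Over all probe sets these shares were 0.705% and 46.5%. The median of the histone probe sets was -0.26. One of them, with several symbols, measured 10.85, 10.79 and 11.19 on the immature and 7.92, 8.28 and 8.86 on the diestrus arrays, a difference of -2.59 (adjusted p = 0.00183). These histone genes are near copies, so which of them it reads is uncertain.

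The start regions of division genes were searched for the CCAAT box and for TTTGAA or TTCGAA, a form of the cell cycle homology region through which mitotic genes are repressed outside division. Of 25 division genes with a RefSeq window, 19 held CCAAT (76%, against 37.9% of all genes) and 19 held TTTGAA or TTCGAA (76%, against 19.4%). Of 15 centriole amplification genes with a window, 4 held CCAAT (26.7%) and 2 held TTTGAA or TTCGAA (13.3%). The windows of Ccnb2 (chr9:70421505-70421804, minus strand) and Racgap1 (chr15:99651607-99651906, minus strand, both GRCm38.p6) are printed because both genes fell and hold both motifs. Capitals mark both motifs on either strand, and no match overlaps another.
Ccnb2: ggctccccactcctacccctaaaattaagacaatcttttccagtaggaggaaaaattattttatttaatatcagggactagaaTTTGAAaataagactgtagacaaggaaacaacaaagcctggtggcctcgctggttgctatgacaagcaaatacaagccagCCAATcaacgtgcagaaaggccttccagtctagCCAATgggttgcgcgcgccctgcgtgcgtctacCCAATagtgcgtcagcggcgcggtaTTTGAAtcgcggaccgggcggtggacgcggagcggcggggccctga
Racgap1: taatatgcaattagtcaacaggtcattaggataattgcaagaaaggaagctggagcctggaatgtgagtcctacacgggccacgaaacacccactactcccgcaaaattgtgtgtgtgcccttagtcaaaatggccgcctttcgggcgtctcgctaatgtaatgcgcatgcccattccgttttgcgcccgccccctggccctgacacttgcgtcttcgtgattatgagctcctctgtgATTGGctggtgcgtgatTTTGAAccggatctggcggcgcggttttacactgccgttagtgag

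**Figure D4:**
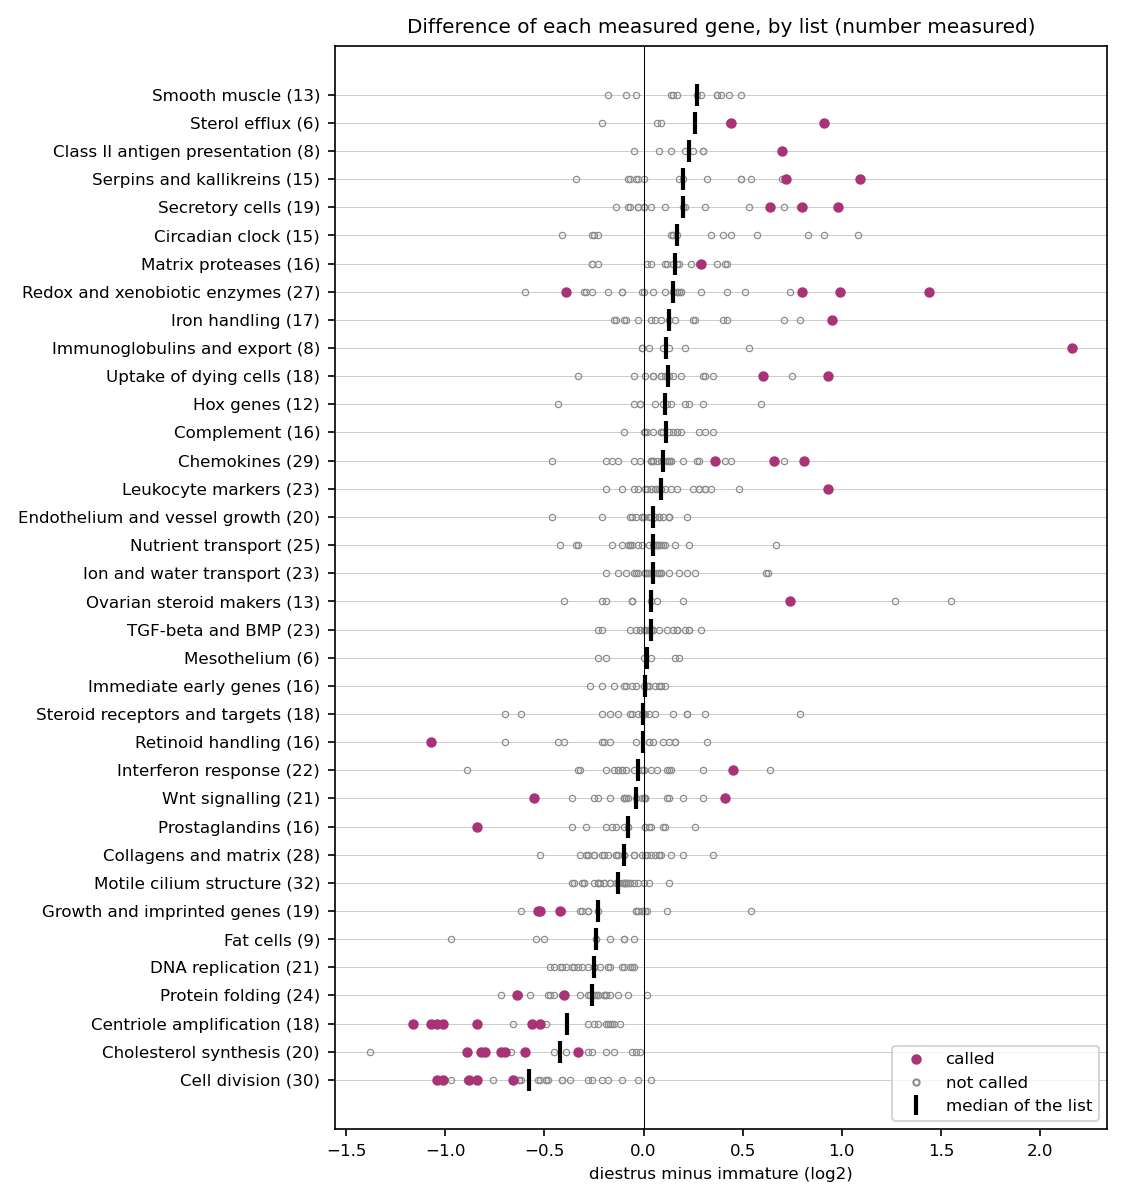
Each point is the difference, diestrus minus immature in log2 (horizontal axis), of 1 measured gene in 1 of the gene lists (rows, number measured in brackets), filled where the gene was called, with a bar at the list's median. Medians lie at -0.57 for cell division, -0.42 for cholesterol synthesis and -0.38 for centriole amplification, and at 0.27 for smooth muscle, which has no call.

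Lrat, which stores retinol as esters, measured 10.73, 10.25 and 10.26 on the immature and 9.55, 9.18 and 9.31 on the diestrus arrays and fell by 1.07, with an SE of 0.14 (adjusted p = 0.013 in limma). It was the 1 call among 16 retinoid genes, where 0.705% of all probe sets fell and 0.294% rose. Cyp26a1, which breaks down retinoic acid, averaged 11.17 and 10.47 without a call (adjusted p = 0.0864). Ptgs2, the inducible cyclooxygenase, measured 10.55, 10.05 and 10.23 against 9.60, 9.53 and 9.19 and fell by 0.84, with an SE of 0.16 (adjusted p = 0.0463), the 1 call among 16 prostaglandin genes. Fabp5, a fatty acid carrier, measured 10.83, 10.31 and 10.53 against 9.79, 9.82 and 9.36 and fell by 0.90 (adjusted p = 0.0362). A dimmer probe set of Fabp5 differed by -0.73 without a call (adjusted p = 0.0536). For Lrat, Ptgs2 and Fabp5 the highest array was immature 1, which was also the highest for fat cell genes. Retn, made by fat cells, measured 10.76, 10.28 and 9.38 against 9.36, 8.79 and 9.36, and none of 9 fat cell genes was called. Their part in these falls was not tested.

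Mfsd2a, a transporter of lysophospholipids, measured 10.40, 10.59 and 10.59 against 9.88, 9.96 and 9.86 and fell by 0.63, with an SE of 0.07 (adjusted p = 0.00604 in limma). Lcorl, a gene associated with body size, measured 10.74, 10.61 and 10.52 against 10.04, 9.93 and 10.07 and fell by 0.61, with an SE of 0.07 (adjusted p = 0.00657). Both kept their call in each left-out fit. Nt5dc2, of a family named for nucleotidase domains, averaged 10.41 ± 0.30 (SD, n = 3) and 9.39 ± 0.29 and fell by 1.02. Of Lrat, Ptgs2, Fabp5, Mfsd2a, Lcorl and Nt5dc2, 6 in all, 4 were called without immature 1, 3 without each of immature 2, immature 3 and diestrus 1, 2 without diestrus 2, 5 without diestrus 3, and 3, 4 and 3 without estrus 1, 2 and 3. The lost calls had an adjusted p between 0.0502 and 0.134, and Ptgs2 was called in no left-out fit.

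Chaperones and juvenile growth genes gave few and small calls, beside lower means in most of them. Of 24 protein folding genes 2 fell and 23 had a lower diestrus mean, against 0.705% and 46.5% of all probe sets. The median was -0.26, and 19 were lower at an unadjusted p under 0.05 in limma, against 8.95% of all. Hsph1, a chaperone of the heat shock response, measured 11.41, 11.14 and 11.07 against 10.57, 10.50 and 10.63 and fell by 0.64 (adjusted p = 0.047 in limma). Hsp90aa1, a cytosolic chaperone with many copies in the genome, fell by 0.40 (adjusted p = 0.0342), and its dimmest probe set differed by -0.36 without a call. Hspa8, the constitutive Hsp70, averaged 13.72 and 13.53 without a call. Of 19 growth and imprinted genes 3 fell and none rose, with a median of -0.23, and 9 were lower at an unadjusted p under 0.05. Mest, an imprinted gene of embryonic tissue, measured 8.77, 8.78 and 8.70 against 7.99, 8.34 and 8.34 and fell by 0.53 (adjusted p = 0.0458). Peg3, an imprinted zinc finger gene, fell by 0.42 and Mdk, the growth factor midkine, by 0.52. Igf1, the growth factor of the growth hormone axis, measured 11.37, 11.40 and 11.25 against 10.64, 10.41 and 11.12 and was not called (adjusted p = 0.115), with diestrus 3 again the nearest to the immature arrays. Of the 5 genes called here, none was called without immature 1, 2 or 3 or without diestrus 1 or 2, 4 without diestrus 3, and 2, 4 and 2 without estrus 1, 2 and 3. Where a call was lost, the adjusted p was between 0.0508 and 0.166.

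Signalling and matrix genes gave scattered calls. Ccn2, a matricellular protein also known as connective tissue growth factor, measured 10.25, 10.11 and 10.19 on the immature and 10.81, 10.87 and 10.84 on the diestrus arrays. It rose by 0.66 ± 0.06 (adjusted p = 0.00272 in limma) and was called in each left-out fit. Of 21 Wnt genes 1 rose and 1 fell, both secreted antagonists or their relatives, where 0.294% of all probe sets rose and 0.705% fell. Sfrp1 measured 10.61, 10.70 and 10.79 against 10.30, 10.13 and 10.01 and fell by 0.55 (adjusted p = 0.0231), and Dkk3 measured 10.89, 10.95 and 10.81 against 11.21, 11.31 and 11.37 and rose by 0.41 (adjusted p = 0.0314). Mmp11, a matrix metalloproteinase of stroma, rose by 0.29 and was the 1 call among 16 protease genes. Of these 4 genes, Ccn2 alone was called without immature 1, 2 or 3 or diestrus 2, 2 were called without diestrus 1, 3 without diestrus 3, and 2, 3 and 2 without estrus 1, 2 and 3. Calls that were lost had an adjusted p between 0.0502 and 0.16, and Mmp11 was called in no left-out fit.

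Contractile and structural lists held no call. The 13 smooth muscle genes had a median of 0.27, and of 0.04 without diestrus 3. Myh11, the heavy chain of smooth muscle myosin, measured 11.19, 11.03 and 11.42 against 11.29, 11.29 and 12.33, so diestrus 3 alone stood above the rest. The 28 collagen and matrix genes had a median of -0.10, which lay between -0.31 and 0.07 over the left-out fits. It was -0.31 without diestrus 3, a fit in which 4 of them fell. The 12 Hox genes had a median of 0.11, and of -0.03 without that array.

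**Figure D5:**
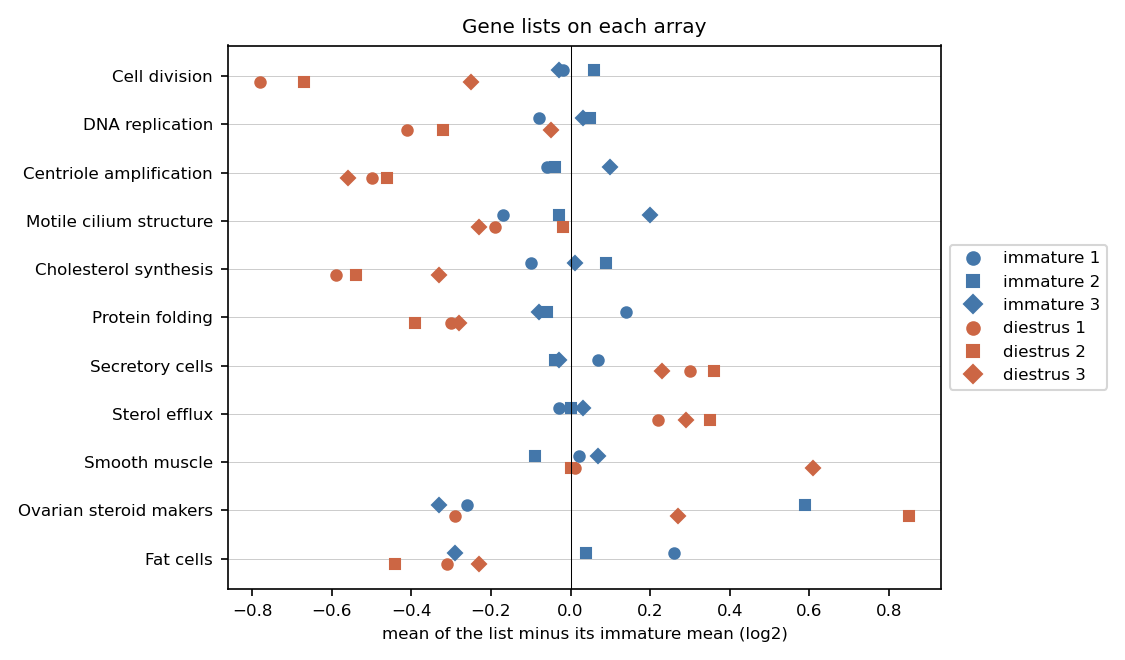
Each symbol is the mean log2 level of a gene list on 1 array minus its mean on the immature arrays (horizontal axis), in blue for the 3 immature and in red for the 3 diestrus arrays. Centriole amplification lies between -0.56 and -0.46 on all diestrus arrays, whereas cell division spreads from -0.78 to -0.25 and smooth muscle reaches 0.61 on diestrus 3 only.

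Hormone receptor genes were not called. Esr1, the estrogen receptor alpha, measured 12.57, 12.49 and 12.57 against 12.49, 12.54 and 12.57 and differed by -0.01 ± 0.05, with a sign that changes with the scaling. Pgr, the progesterone receptor, measured 11.14, 10.98 and 10.88 against 10.82, 10.69 and 11.12 and differed by -0.13 ± 0.11 (adjusted p = 0.693 in limma). None of 18 receptor and target genes was called, 3 were higher and 3 lower at an unadjusted p under 0.05, and the list's median was 0.00. No call was made either among 23 TGF-beta and BMP genes, 23 genes of ion and water transport, 25 of nutrient transport, 20 endothelial genes, 16 immediate early genes or 15 clock genes. At an unadjusted p under 0.05, which 4.44% of all probe sets passed as higher and 8.95% as lower, the counts of higher and lower genes were 3 and 1 for TGF-beta and BMP, 2 and 0 for ion and water transport and 1 and 3 for nutrient transport. They were 0 and 2 for endothelium, 0 and 1 for immediate early genes and 7 and 4 for the clock. Among the clock genes Nr1d1, a repressor of the clock, measured 10.04, 11.04 and 11.17 against 11.89, 12.11 and 11.48 and Dbp, a clock output factor, measured 9.74, 10.63 and 11.03 against 11.50, 11.62 and 10.99. Immature 1 was the lowest array for both, and neither was called (adjusted p = 0.179 and 0.238). The hour of tissue collection was not given in the sources used.

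Of 8 haemoglobin probe sets, grouped after their values were seen and partly shared between globin genes, 4 fell, by between 0.69 and 1.37. Over all probe sets 0.705% fell. A lower diestrus mean was found for 5 and a higher one for 3, against 46.5% and 53.5% of all, and the median was -0.37. The 2 measured genes of a red cell marker list of 5 were not called, and their summed intensity was between 770 and 839 on the immature and between 716 and 739 on the diestrus arrays. The part of blood left in the vessels was not tested.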

How the data were processed

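Whole oviduct RNA of 9 arrays was read from the deposited value table. Its log2 intensities are the authors' own, from RMA (background correction, quantile normalization, median polish) in Affymetrix Expression Console, per the submitters' processing notes, with versions not given in the sources. The table does not write the log base, and its range is that of log2. Precision is limited by the number of arrays.

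None of the 28214 probe sets was filtered out. The platform's annotation gave 1 symbol to 21640 of them, several to 1321 and none to 5253. No gene was named from a probe set with several. For the 954 genes with several probe sets of 1 symbol, that with the highest mean over the 6 arrays compared stood for the gene. Of these genes, 17 were called in at least 1 probe set and 1 in every probe set. Ovgp1 and C3 had none and were not analysed here. Near-identical copies may share probes.

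One limma model (version 3.58.1, with R 4.3.3) held the 3 groups and no replicate block, on 6 residual degrees of freedom (prior 3.60), and its median residual SD was 0.0957. Moderated two-sided tests of diestrus minus immature were adjusted by Benjamini-Hochberg across the whole table, and a call is an adjusted p under 0.05. The fit was tested on simulated data with independent noise. That test held no array effects, so it does not cover the change of the counts with single arrays. Python 3.11.15 with pandas 2.3.3 and matplotlib 3.10.9 made the summaries and plots. RefSeq windows of GRCm38.p6 gave promoter letters, with the first window of a gene and without those of chromosome 18.

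The groups compared and the 37 gene lists were chosen with earlier results of these data known. The rule named the 15 largest rises and falls among called genes whose groups did not overlap and whose higher group lay above the array median, up to 4 called and 2 uncalled members of each list, genes called in every left-out fit, and always Lipf, Jchain, Ccna1, Mki67, Ltf, Pgr, Esr1, Pax8 and Foxj1. The text takes part of these. Named outside the rule, after their values were seen, were Idi1, Abcg1, Ctsd, Gmnc, Retn, Dbp, Pigr, Pou2af1, Cd79a, Cd79b and, as called members of their lists, Sqle, Insig1, Srebf2, Sass6, Mcidas and Racgap1. Marker genes (Akr1c18, Cyp11a1 and Myh11) came from the marker lists.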

Additional observations from a re-analysis of the deposited data

How the results depend on the processing

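Against 83 higher and 199 lower probe sets, the fits that leave out 1 array called between 16 and 116 higher and between 19 and 417 lower. A fit of only the 6 arrays compared called 36 and 49, array weights 335 and 953, and, added after seeing the data, leaving out immature 2 and diestrus 2 together 5 and 5. Quantile normalization again lowered the count of falls to 131 and cyclic loess to 123. An adjusted p under 0.01 left 14 and 17, and a size of at least 2-fold 16 and 12. The cause of these changes was not tested, beyond the fewer arrays in a fit. With the replicate number as a block 45 rose and 76 fell. The labels share only a number between groups, and deviations of same-numbered arrays correlated at 0.102, -0.035 and -0.021, so no pairing was read from it. The other alternatives (dim probe sets left out, 1 symbol only, median centring, intensity trend with a robust prior) moved the counts by less than 1.5 times.

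Of 64 called genes named here none changed direction in any alternative. With the block 39 kept their call, with the 6 arrays 22, with median centring 57, with quantile normalization or cyclic loess 49 each, with the trend 62, with array weights 64 and without immature 2 and diestrus 2 together 3. Among 24 of the genes named here without a call, Esr1 changed sign. It moved from -0.01 to 0.00 after quantile normalization and 0.02 after cyclic loess, and lay between -0.03 and 0.01 without single arrays. Array weights were uneven, with 8.16 for estrus 3 and 0.325 for estrus 2.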
